A study of Homo sapiens with 10 samples.

Results

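The glycocalyx genes described here were SDC1, SDC2, SDC3, SDC4, GPC1, GPC4, GPC6, HSPG2, HAS2 and CD44. These genes encode syndecans, glypicans, the proteoglycan perlecan, and a synthase and a receptor of hyaluronan. They were chosen by name, and their Ensembl identifiers matched the symbols in GENCODE release 44, so that 10 of 60448 listed genes were members. RNA-seq was performed on untreated, wild-type cells of 2 human endothelial lines, with 5 independent biological replicates of each, and the study compared the lines to describe how their transcriptomes differ. HMEC-1 originates from the microvessels of human skin and owes its long growth to the large T antigen of SV40. EA.hy926 is of umbilical vein origin but is a hybrid with lung carcinoma cells (A549), so that its genes come from both parents. EA.hy926 was grown in Advanced DMEM with FBS, and HMEC-1 in MCDB 131 with more FBS, epidermal growth factor and hydrocortisone, so that line and medium cannot be told apart. Cells were grown to a confluent monolayer before RNA extraction. The study's general culture methods name detachment with trypsin unless stated otherwise, and its RNA methods do not mention that step.

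The glycocalyx is the layer of proteoglycans, glycosaminoglycans and glycoproteins on the luminal side of endothelial cells, where it contributes to barrier function, the sensing of shear stress and the binding of growth factors, chemokines and clotting inhibitors. Syndecans span the membrane and glypicans are held to it by a lipid anchor, and both carry heparan sulfate chains, which are built on a short linker sugar and then modified by sulfotransferases, an epimerase and extracellular sulfatases. Perlecan, the product of HSPG2, is the large heparan sulfate proteoglycan of the basement membrane, whereas hyaluronan has no core protein, is extruded by synthases of the plasma membrane and is held at the surface by receptors such as CD44.

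Total counts ranged from 34846046 to 39899324 in EA.hy926 and from 33391640 to 43877224 in HMEC-1. Values are CPM, the counts relative to the library size scaled by TMM factors, and 3 counts, taken as the limit of detection, corresponded to 0.0780 to 0.0903 CPM in EA.hy926 compared with 0.0650 to 0.0855 CPM in HMEC-1. All 12 endothelial markers had more than 3 counts in at least 1 library of each line, although CLDN5 had only 0 to 5 counts in EA.hy926, and their summed level was 5983 to 6706 CPM in EA.hy926 compared with 2103 to 2172 CPM in HMEC-1. Of 12 epithelial markers, 8 were detected in each line, with sums of 1275 to 1388 CPM in EA.hy926 compared with 428.9 to 491.3 CPM in HMEC-1, while CDH1, ESRP1, ELF3 and GRHL2 had at most 3 counts in every library. The difference of these sums came from the keratin genes KRT7, KRT8 and KRT18, and of the 8 tested, KRT8 and EPCAM were significantly higher and KRT19, CLDN7 and CLDN4 significantly lower in EA.hy926 (log2FC = -4.71, -4.54 and -1.42). Of 8 fibroblast markers, 2 were detected in EA.hy926 (sum 0.936 to 1.60 CPM) and 6 in HMEC-1 (472.5 to 502.1 CPM), where COL1A1 and COL1A2 were read and DCN and LUM were at 0. Of 6 leukocyte markers, 3 were detected in EA.hy926, with a sum of 9.23 to 11.9 CPM that was mostly LYZ, and 2 in HMEC-1, with 0.693 to 1.15 CPM. In these bulk libraries, fewer cells of a type and less RNA per cell cannot be told apart. The part of the endothelial, epithelial and leukocyte markers in the results on the glycocalyx genes was not tested.

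**Figure D1:**
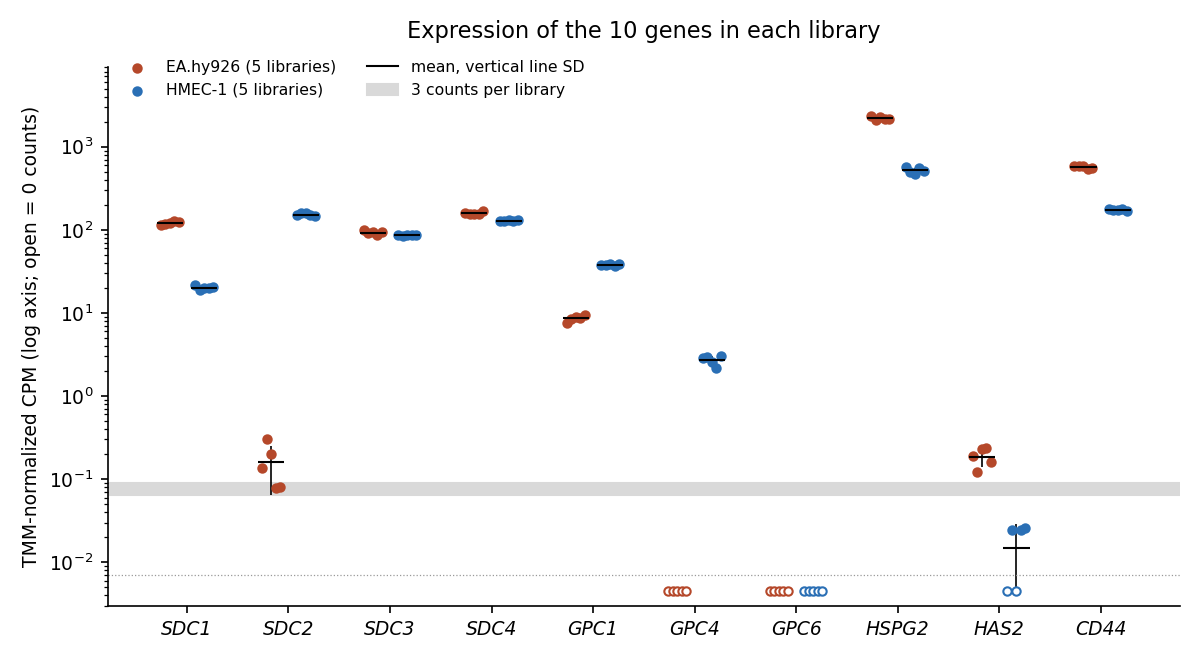
TMM-normalized CPM (log axis) of each glycocalyx gene in the 5 EA.hy926 and 5 HMEC-1 libraries, with the mean as a horizontal and the SD as a vertical line, the CPM of 3 counts as a grey band and libraries with 0 counts as open circles under the dotted line. SDC2 lies near the band in EA.hy926 and at 147.4 to 158.5 CPM in HMEC-1, GPC4 is at 0 in EA.hy926 only, and GPC6 is at 0 in every library.

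Of the 10 genes, 8 passed the filter on low counts, and GPC6 and HAS2 did not. A difference was called where the adjusted p of edgeR's quasi-likelihood test was under 0.05 and the absolute log2FC was over 1, with positive values higher in EA.hy926. Among all 16310 genes tested, 35.5% passed both thresholds, 19.1% as higher and 16.4% as lower in EA.hy926. SDC1, HSPG2 and CD44 were significantly higher in EA.hy926, and SDC2, GPC1 and GPC4 were significantly lower, giving 6 of the 8 genes tested. SDC3 and SDC4 passed the adjusted p alone, as did the other 6, at a background of 85.8% of all genes tested (42.6% higher and 43.3% lower in EA.hy926). The CPM ranges of the lines did not overlap for any of the 8 genes, with EA.hy926 above in 5 and below in 3, at a background of 77.4%. The median log2FC over the 8 genes was 0.21, also with GPC4 at its bound, and that over all genes tested was -0.01.

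Of the 4 syndecans, SDC1 and SDC2 differed in opposite directions and by far more than SDC3 and SDC4. SDC1 (ENSG00000115884, chromosome 2, 20200797 to 20225433, minus strand, GRCh38) encodes syndecan-1, a receptor for growth factors and matrix whose shed ectodomain is used as a marker of glycocalyx damage. Its level was 115.2, 118.2, 122.0, 126.8 and 125.5 CPM in the EA.hy926 libraries and 21.52, 19.08, 19.96, 19.76 and 20.34 CPM in those of HMEC-1. Every EA.hy926 library was well above every HMEC-1 library, with means of 121.5 ± 4.88 and 20.1 ± 0.900 CPM (SD, n = 5 each), a 6.04-fold difference (log2FC = 2.60, SE 0.037, edgeR adjusted p = 1.2e-23).

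SDC2 (ENSG00000169439, chromosome 8, 96493813 to 96611790, plus strand) encodes syndecan-2, a heparan sulfate carrier of mesenchymal and endothelial cells. It was read with 5, 10, 7, 3 and 3 counts in EA.hy926 against 5240, 6470, 7271, 6163 and 5638 counts in HMEC-1, which were 0.159 ± 0.0936 and 153 ± 4.96 CPM (SD, n = 5 each). EA.hy926 was thus at or slightly above the limit of detection, and the groups lay far apart. The difference was 967-fold (log2FC = -9.92, SE 0.083, edgeR adjusted p = 2.9e-27), and 249 of the 16310 genes tested, or 1.53%, had an absolute log2FC as large or larger. This SE understates the error at such low counts, since DESeq2 gave -9.94 (SE 0.27) and limma-voom -9.98 (SE 0.3). Without EA.hy926 replicate 2, the library with 10 counts, log2FC was -10.25. The fibroblast markers moved the same way, with COL1A1 at 0.318 and 358 CPM and COL1A2 at 0.0393 and 108 CPM in EA.hy926 and HMEC-1. The part of the fibroblast markers in the SDC2 result was not tested.

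SDC3 (ENSG00000162512, chromosome 1, 30869466 to 30908758, minus strand), encoding syndecan-3, which is best known from the nervous system, had 99.37, 90.83, 92.96, 86.96 and 93.92 CPM in EA.hy926. In HMEC-1 it had 85.89, 84.5, 86.35, 85.64 and 85.74 CPM. The ranges lay next to each other without overlap, and the difference of 1.08-fold (log2FC = 0.12, SE 0.031, edgeR adjusted p = 0.0016) was under the fold threshold. Scaled by library totals alone, log2FC was -0.02 (edgeR adjusted p = 0.549), so that no direction can be given for SDC3.

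SDC4 (ENSG00000124145, chromosome 20, 45325288 to 45348424, minus strand) encodes syndecan-4, a component of focal adhesions that binds protein kinase C alpha. It had 157.8, 154.7, 157.0, 155.2 and 168.3 CPM in EA.hy926 compared with 129.2, 128.0, 129.9, 126.6 and 132.7 CPM in HMEC-1. EA.hy926 was above HMEC-1 in every library, but the difference was only 1.23-fold (log2FC = 0.30, SE 0.027, edgeR adjusted p = 1.7e-09).

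To compare the members of a family with each other, CPM was divided by the exon length of each gene in kb, and the share of each gene in the family sum was computed. The summed syndecan level was 107.5 ± 2.89 CPM per kb in EA.hy926 compared with 104.6 ± 1.11 CPM per kb in HMEC-1 (SD, n = 5 each), with ranges of 104.8 to 112.4 and 103.0 to 106.0 that overlapped. The make-up of this sum differed. SDC4 held the largest share of the sum in both lines, 56.5% in EA.hy926 against 47.3% in HMEC-1, and SDC3 held 12.2% and 11.6%. The second largest share belonged to SDC1 in EA.hy926 (31.3%, against 5.33% in HMEC-1) and to SDC2 in HMEC-1 (35.8%, against 0.0365% in EA.hy926). The order of the sums depended on the scaling, since with library totals they were 102.6 ± 3.27 in EA.hy926 against 109.6 ± 1.31 in HMEC-1, and with the length of the longest transcript 112.2 ± 2.97 and 115.2 ± 1.29. Without division by length, SDC2 (39.4%) rather than SDC4 (33.3%) held the largest share in HMEC-1.

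**Figure D2:**
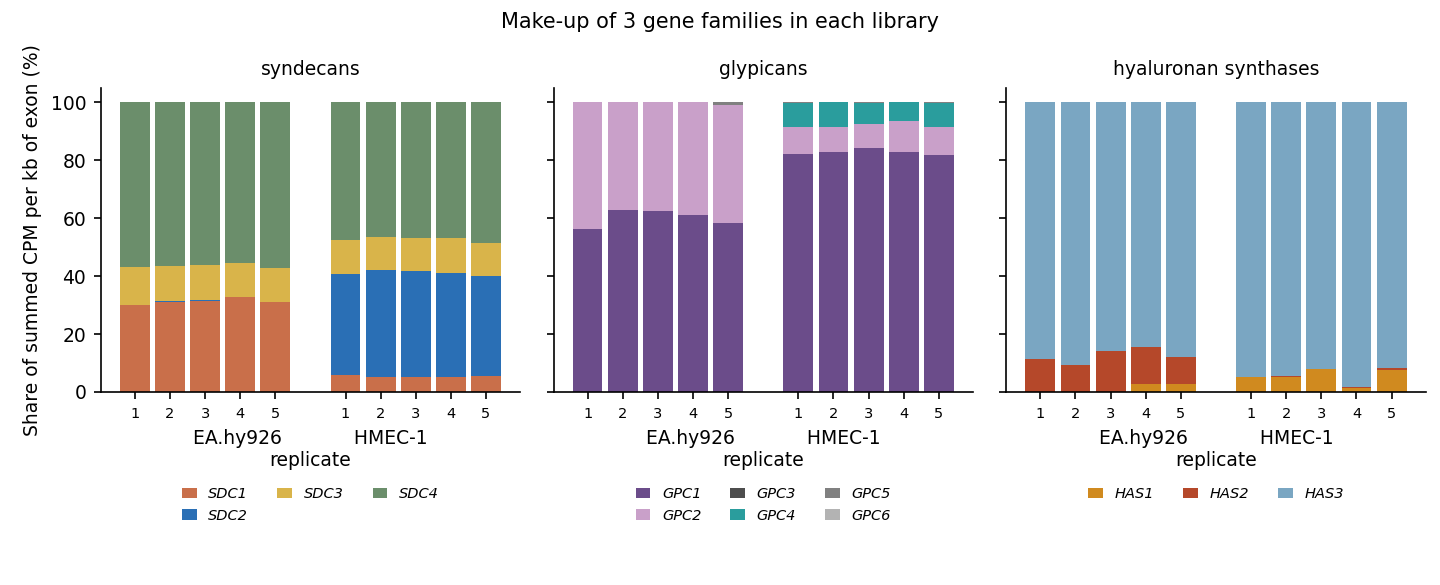
Share of each gene in the summed CPM per kb of exon of its family (%, stacked to 100) for the syndecans, glypicans and hyaluronan synthases, with 1 bar per library. SDC1 fills 29.97 to 32.86% of the syndecan sum in EA.hy926 where SDC2 fills 34.49 to 36.94% in HMEC-1, and GPC4 appears in HMEC-1 only.

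Both detected glypicans among the members were lower in EA.hy926. GPC1 (ENSG00000063660, chromosome 2, 240435663 to 240468076, plus strand) encodes glypican-1, the main glypican of endothelium, which has been linked to the response to shear stress. It had 7.575, 8.46, 8.906, 8.608 and 9.344 CPM in EA.hy926 compared with 37.28, 37.96, 38.27, 36.26 and 38.39 CPM in HMEC-1. The libraries of the lines were clearly separated, with means of 8.58 ± 0.655 and 37.6 ± 0.879 CPM (SD, n = 5 each) and a 4.39-fold lower level in EA.hy926 (log2FC = -2.13, SE 0.049, edgeR adjusted p = 4.7e-20).

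GPC4 (ENSG00000076716, chromosome X, 133300103 to 133415489, minus strand) encodes glypican-4. It had 0 counts in each of the 5 EA.hy926 libraries and 101, 119, 118, 88 and 115 counts in HMEC-1, which were 2.70 ± 0.349 CPM (SD, n = 5). GPC4 was therefore read in HMEC-1 alone, at a low level. Its level in EA.hy926 was at least 29.9-fold lower, against 3 counts per library (edgeR adjusted p = 4.6e-13).

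GPC6 (ENSG00000183098, chromosome 13, 93226807 to 94408020, plus strand), encoding glypican-6, had 0 counts in all 10 libraries and was not tested. Of the glypicans outside the members, GPC3 was also at 0 in every library, and GPC5 had at most 3 counts in any library. GPC2 had 3.33 ± 0.351 CPM in EA.hy926 compared with 2.48 ± 0.241 CPM in HMEC-1 (SD, n = 5 each, log2FC = 0.43, SE 0.11, edgeR adjusted p = 0.0012), under the fold threshold. The summed glypican level was 2.19 ± 0.160 CPM per kb in EA.hy926 compared with 6.97 ± 0.178 CPM per kb in HMEC-1, far under that of the syndecans in both lines. GPC1 held 60.2% of this sum in EA.hy926 against 82.8% in HMEC-1, GPC2 39.7% and 9.30%, and GPC4 0% and 7.81%.

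The 250 bases before the RefSeq start are shown for these 3 glypicans because GPC1 was read in both lines, GPC4 in 1 line and GPC6 in neither. Sequences are from RefSeq (GRCh38.p14), 5′ to 3′ on the strand of the gene, and capitals mark the GC box, searched as GGGCGG on both strands. Windows were read for 8 of the 10 members. SDC2 and HAS2 were not included, so that nothing is shown here on their promoters or on whether they have an entry.
GPC1, chr2:240435413-240435662, plus strand: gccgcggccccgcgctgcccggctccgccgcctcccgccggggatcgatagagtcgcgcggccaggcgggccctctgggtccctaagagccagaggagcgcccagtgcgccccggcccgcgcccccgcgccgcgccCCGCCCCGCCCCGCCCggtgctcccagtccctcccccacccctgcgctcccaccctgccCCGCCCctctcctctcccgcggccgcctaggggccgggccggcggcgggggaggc
GPC4, chrX:133415490-133415739, minus strand: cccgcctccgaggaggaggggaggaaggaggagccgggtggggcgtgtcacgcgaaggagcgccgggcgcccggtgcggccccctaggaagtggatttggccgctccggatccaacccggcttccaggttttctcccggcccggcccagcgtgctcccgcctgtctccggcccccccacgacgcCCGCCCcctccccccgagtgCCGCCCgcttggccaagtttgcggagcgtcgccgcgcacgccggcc
GPC6, chr13:93226557-93226806, plus strand: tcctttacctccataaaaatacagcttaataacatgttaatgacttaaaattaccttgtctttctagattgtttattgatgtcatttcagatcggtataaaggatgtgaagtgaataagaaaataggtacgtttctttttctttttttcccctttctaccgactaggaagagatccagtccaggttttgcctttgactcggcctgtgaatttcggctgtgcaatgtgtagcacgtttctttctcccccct
The GPC1 window held 36 CpG dinucleotides and 4 GC boxes at 84.0% GC, and the GPC4 window 32 CpG dinucleotides and 2 GC boxes at 76.0% GC. The GPC6 window differed from both, with 6 CpG dinucleotides, no GC box, 1 TATAAA and 37.6% GC. Over 35116 windows of this length, the median was 11 CpG dinucleotides and 58.0% GC, 42.6% held a GC box and 10.7% held TATAAA on either strand. Of the other members, SDC4 (26 CpG dinucleotides) and HSPG2 (33 CpG dinucleotides) held 8 GC boxes each. CD44 held 15 CpG dinucleotides and 2 GC boxes at 62.4% GC. SDC1 had 2 entries, with 23 and 21 CpG dinucleotides and 1 GC box each. SDC3 held 5 GC boxes and, with 37, the most CpG dinucleotides of these 8 members. TGANTCA, the AP-1 motif, was in none of the windows of these 8 members and in 6.57% of all. Whether these sequence features go with the levels of the genes was not tested.

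HSPG2 (ENSG00000142798, chromosome 1, 21822244 to 21937310, minus strand), encoding perlecan, had the highest CPM of the 10 genes in both lines. It had 2360, 2088, 2292, 2130 and 2150 CPM in EA.hy926 compared with 572.5, 495.6, 467.9, 551.8 and 506.3 CPM in HMEC-1. The groups did not overlap, with means of 2204 ± 116 and 519 ± 42.6 CPM (SD, n = 5 each) and a 4.25-fold higher level in EA.hy926 (log2FC = 2.09, SE 0.046, edgeR adjusted p = 2.4e-20). Of its exonic bases, 11.7% are shared with LDLRAD2 on the other strand, whose reads cannot be separated without a stated strand setting.

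The hyaluronan genes differed in level by orders of magnitude. HAS2 (ENSG00000170961, chromosome 8, 121612116 to 121641440, minus strand) encodes hyaluronan synthase 2, which makes long hyaluronan chains. It was read with 7, 4, 8, 9 and 6 counts in EA.hy926 against 0, 1, 0, 1 and 1 counts in HMEC-1, too few to pass the filter. All EA.hy926 libraries were above all HMEC-1 libraries, although most values were close to the limit of detection. The pooled ratio was 12.6 (95% exact interval 3.96 to 64.1, from 34 and 3 counts, covering counting error only), and in a fit without the filter log2FC was 3.37 (edgeR adjusted p = 1.8e-05).

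The other synthases were read in the opposite order or hardly at all. HAS3, which makes shorter chains, had 1.73 ± 0.192 CPM in EA.hy926 compared with 5.02 ± 0.276 CPM in HMEC-1 (SD, n = 5 each) and was significantly lower in EA.hy926 (log2FC = -1.53, SE 0.10, edgeR adjusted p = 7.0e-12). HAS1 had 0 to 1 counts in EA.hy926 against 1 to 9 counts in HMEC-1 and was not tested. In the fit without the filter, HAS1 passed both thresholds as lower in EA.hy926 (log2FC = -3.22). The summed synthase level was 0.382 ± 0.0491 CPM per kb in EA.hy926 compared with 1.03 ± 0.0792 CPM per kb in HMEC-1, and HAS3 held 87.4% and 94.2% of it. HAS2 held 11.4% of the sum in EA.hy926 against 0.354% in HMEC-1.

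CD44 (ENSG00000026508, chromosome 11, 35138882 to 35232402, plus strand) encodes the main hyaluronan receptor, which is linked to the cytoskeleton through ezrin, radixin and moesin. It had 582.4, 584.4, 579.7, 539.9 and 551.4 CPM in EA.hy926 compared with 176.6, 173.9, 175.5, 176.7 and 170.6 CPM in HMEC-1. The libraries of each line lay close together and far from those of the other, with means of 568 ± 20.5 and 175 ± 2.55 CPM (SD, n = 5 each) and a 3.25-fold higher level in EA.hy926 (log2FC = 1.70, SE 0.027, edgeR adjusted p = 8.7e-23). Counts per gene do not separate the standard and variant isoforms of CD44.

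**Figure D3:**
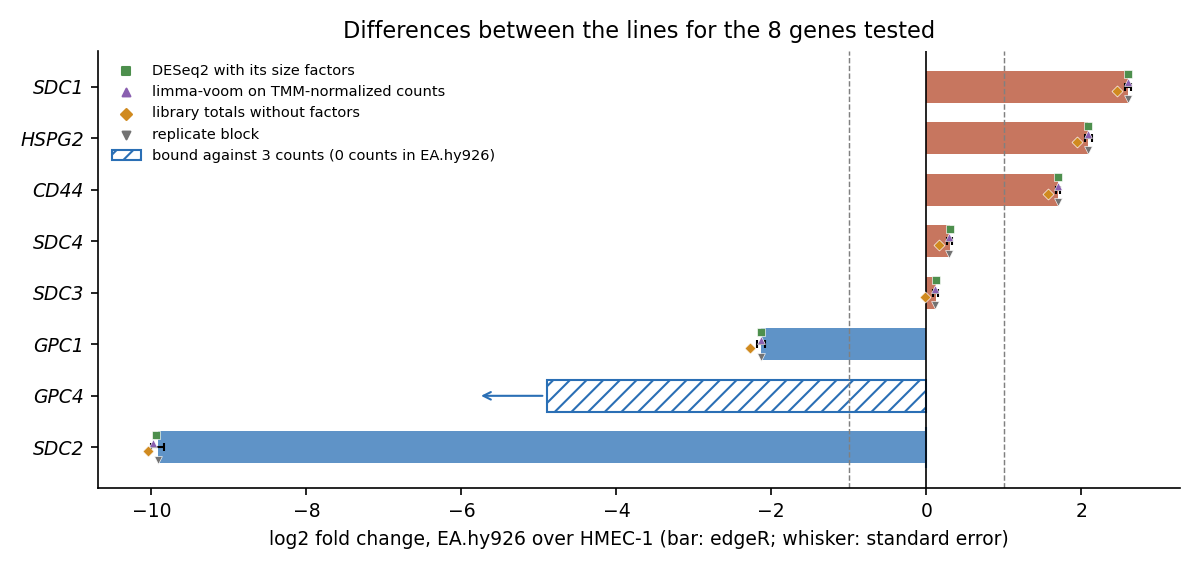
log2FC of the 8 genes tested (bars, edgeR, whiskers SE; right of 0 is higher in EA.hy926) with the values of DESeq2, limma-voom, library totals and the replicate block as symbols and the fold threshold as dashed lines; the hatched bar of GPC4 is its bound against 3 counts. SDC1, HSPG2 and CD44 lie beyond the threshold to the right and SDC2, GPC4 and GPC1 to the left, and SDC3 crosses 0 with library totals. The whisker of SDC2 is narrower than the SE of DESeq2 (0.27) or limma-voom (0.3).

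Ordered by CPM per kb of exon, the levels in EA.hy926 were HSPG2, SDC4 (60.7), CD44, SDC1 (33.6), SDC3 (13.1), GPC1, HAS2 (0.0440) and SDC2 (0.0389), with GPC4 and GPC6 at 0, and only the ranges of the neighbours HAS2 and SDC2 overlapped. In HMEC-1 the order was SDC4 (49.5), SDC2 (37.4), HSPG2, CD44, SDC3 (12.1), GPC1, SDC1 (5.57), GPC4 and HAS2 (0.00355), with GPC6 at 0, and the ranges of GPC1 and SDC1 overlapped. Among all genes tested, the level of SDC2 per kb stood at percentile 5.54 in EA.hy926 against 93.3 in HMEC-1, and that of SDC1 at 92.2 and 59.8. SDC4 stood at percentile 96 and 95.3, and HSPG2 at 98.2 and 90.8, in EA.hy926 and HMEC-1.

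The members were then set beside 125 further genes in 7 lists covering other core proteins, hyaluronan metabolism, the synthesis of the sugar chains, their removal and the intracellular partners of syndecans and CD44. Of these, 95 were tested, 27 were significantly higher and 15 were significantly lower in EA.hy926, at the background of 35.5% of all genes. The means of the 42 genes called are shown in the plot of pathway genes by line.

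**Figure D4:**
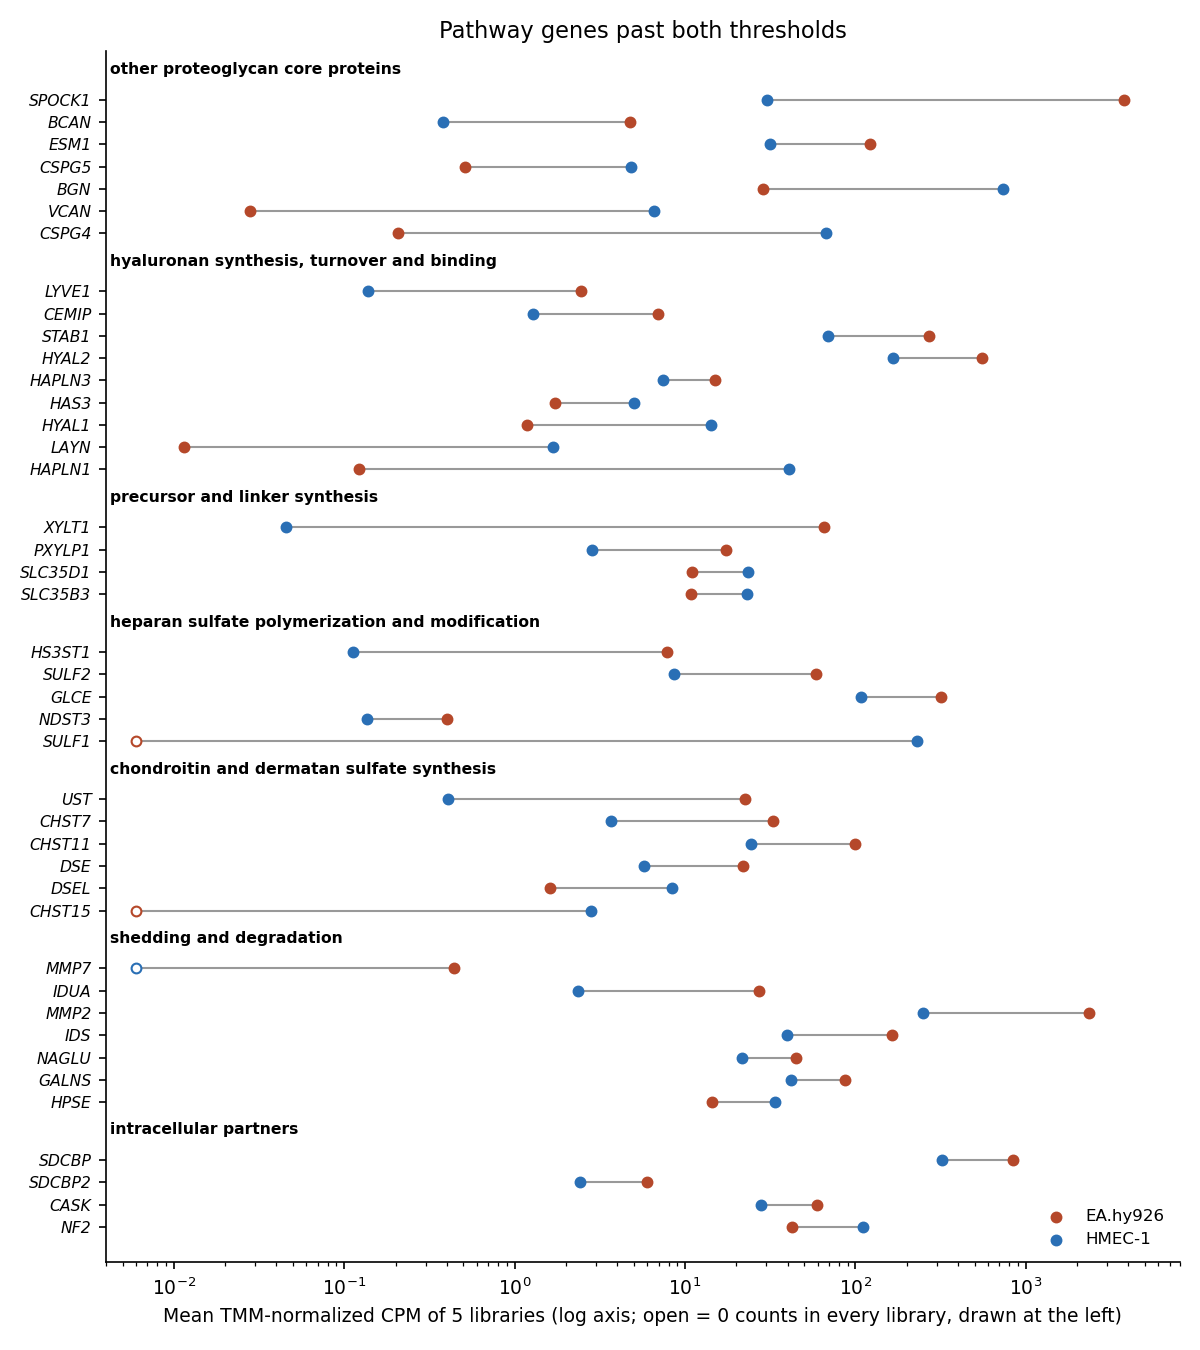
Mean TMM-normalized CPM (log axis, n = 5 libraries per line) of the 42 pathway genes past both thresholds, grouped by list, with open circles at the left for lines with 0 counts in every library. SULF1 and CHST15 are at 0 in EA.hy926 and MMP7 is at 0 in HMEC-1, so the length of their lines is not a measured difference, and XYLT1, CSPG4 and HAPLN1 are each far apart between the lines.

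Of 22 other proteoglycan core proteins, 13 were tested, 3 were higher and 4 were lower in EA.hy926 (median log2FC 0.07). SPOCK1, encoding testican-1, an extracellular proteoglycan, had 3781 ± 124 CPM in EA.hy926 compared with 30.4 ± 0.966 CPM in HMEC-1 (SD, n = 5 each, log2FC = 6.96, edgeR adjusted p = 3.0e-30). BCAN, encoding the hyaluronan-binding proteoglycan brevican, was higher as well (log2FC = 3.58), as was ESM1, encoding the dermatan sulfate proteoglycan endocan of activated endothelium (log2FC = 1.95). CSPG4, encoding the chondroitin sulfate proteoglycan NG2 of pericytes and other cells, had 6 to 10 counts in EA.hy926 against 2387 to 3061 counts in HMEC-1 (log2FC = -8.34, edgeR adjusted p = 1.2e-26). VCAN, encoding versican, had 0 to 2 counts in EA.hy926 against 222 to 301 in HMEC-1, a pooled ratio of 236 (95% exact interval 101 to 727). BGN, encoding biglycan, had 28.6 ± 5.41 CPM in EA.hy926 compared with 737 ± 16.96 CPM in HMEC-1 (SD, n = 5 each, log2FC = -4.69, edgeR adjusted p = 8.5e-23), and CSPG5 was the fourth gene that was lower. CSPG4, VCAN and BGN moved with the fibroblast markers, which summed to 0.936 to 1.60 CPM in EA.hy926 compared with 472.5 to 502.1 CPM in HMEC-1 while the fibroblast proteoglycans DCN and LUM had 0 counts in both, and the part of these markers in the result was not tested. TGFBR3, encoding the co-receptor betaglycan, had a log2FC of 0.98, which rose just past the threshold without EA.hy926 replicate 5. The basement membrane proteoglycans beside perlecan differed less and in the other direction, with log2FC of -0.71 for AGRN and -0.46 for COL18A1. Of the exonic bases of COL18A1, 18.5% are shared with SLC19A1 on the other strand, whose reads cannot be separated without a stated strand setting.

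Of 17 genes of hyaluronan synthesis, turnover and binding, 12 were tested, 5 were higher and 4 were lower in EA.hy926 (median log2FC -0.03). Higher were the receptors LYVE1 (log2FC = 4.15) and STAB1 (log2FC = 1.98), although LYVE1 had only 2 to 8 counts per library in HMEC-1. The hyaluronan-degrading CEMIP (log2FC = 2.44), the hyaluronidase gene HYAL2 and the link protein gene HAPLN3 were also higher. Leaving out EA.hy926 replicate 2, EA.hy926 replicate 4 or HMEC-1 replicate 5 each brought HAPLN3 from a log2FC of 1.02 to 0.99, under the threshold. Its call was also lost with library totals (0.88), without a filter on low counts (0.99) and with glmTreat, a test against a log2FC of 1. Lower were HAPLN1, another link protein gene (3 to 6 counts in EA.hy926 against 1468 to 1932 in HMEC-1, log2FC = -8.35, edgeR adjusted p = 3.5e-25), the receptor gene LAYN (0 to 1 and 54 to 86 counts, pooled ratio 154, 95% exact interval 42.3 to 1280), the hyaluronidase gene HYAL1 (log2FC = -3.59) and HAS3. These 2 hyaluronidase genes thus differed in opposite directions, with HYAL2 at 553 ± 23.4 and 166 ± 5.03 CPM and HYAL1 at 1.18 ± 0.172 and 14.2 ± 0.612 CPM in EA.hy926 and HMEC-1 (SD, n = 5 each). HYAL3, named after its values were seen, had 9.82 ± 0.732 and 7.85 ± 1.11 CPM with overlapping ranges (log2FC = 0.33, edgeR adjusted p = 0.00106), under the fold threshold.

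All 17 genes of the synthesis of sugar precursors and of the linker were tested, 2 were higher and 2 were lower in EA.hy926 (median log2FC 0.18). At the adjusted p without the fold threshold, 9 were higher and 6 lower. The background there was 85.8% of all genes tested (42.6% higher and 43.3% lower in EA.hy926). XYLT1, which encodes 1 of the 2 xylosyltransferases that start the linker, had 65.0 ± 4.94 CPM in EA.hy926 (SD, n = 5) and 1 to 3 counts per library in HMEC-1, a pooled ratio of 1450 (95% exact interval 765 to 3180, edgeR adjusted p = 5.8e-25). XYLT2, the gene of the other xylosyltransferase, was read in both lines at 38.5 ± 0.710 and 48.1 ± 2.17 CPM (SD, n = 5 each, log2FC = -0.32, edgeR adjusted p = 2.6e-08). PXYLP1, which encodes the phosphatase acting on the linker xylose, was also higher (log2FC = 2.60), whereas the nucleotide sugar and sulfate donor transporter genes SLC35D1 and SLC35B3 were lower (log2FC = -1.09 each), which glmTreat did not call.

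Of 23 genes of heparan sulfate polymerization and modification, 12 were tested, 4 were higher and 1 was lower in EA.hy926 (median log2FC 0.65). The genes of the polymerase, EXT1 and EXT2, had log2FC of -0.05 (edgeR adjusted p = 0.11) and 0.77, and NDST1, the N-deacetylase and N-sulfotransferase gene with the most counts, 0.78. The extracellular 6-O-sulfatases, which trim sulfate groups from finished chains, differed in opposite directions. SULF1 was at 0 counts in all EA.hy926 libraries and at 7927 to 10434 counts in HMEC-1, or 229.5 ± 8.51 CPM (SD, n = 5), at least 2540-fold lower in EA.hy926 against 3 counts per library (edgeR adjusted p = 1.9e-24). SULF2 had 58.9 ± 2.35 CPM in EA.hy926 compared with 8.62 ± 0.697 CPM in HMEC-1 (SD, n = 5 each, log2FC = 2.77, edgeR adjusted p = 4.6e-22). HS3ST1, encoding a 3-O-sulfotransferase that makes binding sites for antithrombin, was higher (7.88 ± 0.994 and 0.113 ± 0.0649 CPM, log2FC = 6.07). HS3ST1 had only 1 to 8 counts per library in HMEC-1. GLCE, the epimerase gene (log2FC = 1.56), and NDST3 (log2FC = 1.46) were also higher. The CPM ranges of NDST3 overlapped between the lines, and its call was lost with glmTreat. NDST2 had 1 to 6 counts in any library, and 82.9% of its exonic bases are shared with other genes, so that its level is uncertain.

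Of 16 genes of chondroitin and dermatan sulfate synthesis, 14 were tested, 4 were higher and 2 were lower in EA.hy926 (median log2FC -0.11). UST, encoding the uronyl 2-O-sulfotransferase, had 22.4 ± 1.96 CPM in EA.hy926 compared with 0.405 ± 0.0702 CPM in HMEC-1 (SD, n = 5 each, log2FC = 5.77, edgeR adjusted p = 8.7e-22). CHST7 (log2FC = 3.15) and CHST11 (log2FC = 2.03), both sulfotransferase genes, and the epimerase gene DSE were higher. CHST15, which encodes the sulfotransferase that makes chondroitin sulfate E, had 0 counts in EA.hy926 compared with 2.81 ± 0.269 CPM in HMEC-1 (SD, n = 5), at least 31.2-fold lower in EA.hy926 against 3 counts per library, and DSEL was lower (log2FC = -2.36), although 37.6% of its exonic bases are shared with other genes.

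Of 21 genes of shedding and degradation, 18 were tested, 6 were higher and 1 was lower in EA.hy926 (median log2FC 0.19). MMP2, a gelatinase gene, had 2357 ± 144 CPM in EA.hy926 compared with 250 ± 6.24 CPM in HMEC-1 (SD, n = 5 each, log2FC = 3.23, edgeR adjusted p = 3.4e-25). MMP7, encoding a protease that cleaves syndecan-1, had 13 to 19 counts in EA.hy926 against 0 counts in HMEC-1, at least 5.13-fold higher in EA.hy926 against 3 counts per library. The lysosomal enzyme genes IDUA (log2FC = 3.52), IDS, NAGLU and GALNS were higher, but the call was lost with library totals for NAGLU (log2FC = 0.92) and GALNS (log2FC = 0.93) and with glmTreat for NAGLU, and 75.9% of the exonic bases of IDS are shared with other genes. HPSE, encoding heparanase, which cuts heparan sulfate chains, was the gene that was lower (14.4 ± 0.842 and 33.9 ± 1.64 CPM, SD, n = 5 each, log2FC = -1.24, edgeR adjusted p = 4.5e-16). The sheddase genes ADAM10, ADAM17 and MMP14 were under the fold threshold, with log2FC of -0.41, -0.05 (edgeR adjusted p = 0.107) and -0.77.

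All 9 intracellular partners were tested, 3 were higher and 1 was lower in EA.hy926 (median log2FC 0.32). SDCBP, encoding syntenin-1, which binds the cytoplasmic tail of the syndecans, had 842 ± 25.1 CPM in EA.hy926 compared with 322 ± 3.38 CPM in HMEC-1 (SD, n = 5 each, log2FC = 1.39, edgeR adjusted p = 5.5e-22). SDCBP2 (log2FC = 1.32) and CASK (log2FC = 1.09), both PDZ protein genes, were higher too, although CASK fell to 0.95 with library totals. NF2, encoding merlin, had 42.3 ± 2.01 CPM in EA.hy926 compared with 110 ± 5.14 CPM in HMEC-1 (SD, n = 5 each, log2FC = -1.38, edgeR adjusted p = 7.1e-19). The ezrin, radixin and moesin genes EZR, RDX and MSN, whose products link CD44 to actin, had log2FC of -0.98, -0.36 and 0.59, all under the fold threshold, which EZR passed with library totals (log2FC = -1.12).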

How the data were processed

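The libraries, 5 of each untreated line, were grouped by the sample labels. mRNA was selected with oligo(dT), and the authors deposited raw counts per Ensembl gene, neither normalized nor filtered. The submitters' processing notes name fastp, HISAT2, featureCounts, DESeq2 and GRCh38, whereas the study's methods name HTSeq as the counter; versions, annotation release and strand setting are not given in the sources used here.

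Of 60448 identifiers, 56434 matched GENCODE 44, which gave symbols, coordinates and exon lengths. Shared exonic bases were computed with bedtools 2.31.1 on either strand. Low genes were removed by filterByExpr (count of at least 10, total of at least 15), and the rest were scaled with TMM and compared with the quasi-likelihood test of edgeR 4.0.16 in R 4.3.3 without covariates, with Benjamini-Hochberg adjustment over 16310 genes. The SE is the absolute log2FC over the square root of F, and for SDC2 it was smaller than that of DESeq2 or limma-voom. A line at 0 counts was given a bound against 3 counts per library, and a line with 1 to 3 counts a pooled ratio with an exact 95% interval, which covers counting error only. Medians of the lists were the same with such genes at their bound. No library pair was identical.

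All 10 members, GPC2, GPC3, GPC5, HAS1, HAS3 and, of each list, the genes past both thresholds were named, with values for at most the 3 with the largest absolute log2FC in each direction; XYLT2, EXT1, EXT2, NDST1, NDST2, AGRN, COL18A1, ADAM10, ADAM17, MMP14, EZR, RDX, MSN, TGFBR3 and the remaining values were named after they were seen. The members and lists were chosen with earlier results of these data known. The alternatives were DESeq2 1.42.0, limma-voom (limma 3.58.1), other filters and factors, glmTreat, a replicate block and leaving out each library, with summed syndecan levels on other scales added after the data were seen. In counts simulated from these libraries, edgeR called 191 of 192 tested genes changed by a factor of 3 and 1 other of 16029, DESeq2 190 and 0, and limma-voom 191 and 2. The simulation changed only 200 genes and used no TMM factors, whereas 35.5% of the genes tested were called in the data. It therefore does not check the scaling under differences this broad. Promoter windows were read from RefSeq (GRCh38.p14), and protein sequences were not used here.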

Additional observations from a re-analysis of the deposited data

Results flagged for a closer look

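The CPM of all 135 members and list genes was checked in each line. In 20 of 242 groups of 5 libraries that were not all at 0, 1 library stood apart from the other 4 by Dixon's criterion at 95% (gap over range above 0.71). For normally distributed values, chance gives about 1 in 20, or 12.1 of 242. A group with counts in only 1 library is always flagged, as were 7 of the 20, so that 20 cannot be set against 12.1. Among the members only SDC4 was flagged, at 168.3 CPM in EA.hy926 replicate 5 and at 154.7 to 157.8 CPM in the others. BGN was at 38.12 CPM in EA.hy926 replicate 1 (others 24.73 to 27.55), and CASK at 65.96 CPM in the same library (others 56.95 to 59.18). In EA.hy926 replicate 2, PAPSS2 was at 283.7 CPM (others 261.9 to 267.2), CHPF2 at 107.5 CPM (others 111.8 to 113.2) and CHST14 at 61.78 CPM (others 56.12 to 57.42). HS3ST5 was at 0.2845 CPM in EA.hy926 replicate 3 (others 0.05385 to 0.1204), PRKCA at 261.6 CPM in EA.hy926 replicate 4 (others 286.6 to 294.1) and SLC35B3 at 11.82 CPM in EA.hy926 replicate 5 (others 10.39 to 10.77). In HMEC-1 replicate 5, SULF1 was at 244.4 CPM (others 223.0 to 228.2), CEMIP2 at 89.27 CPM (others 85.07 to 86.06) and PAPSS2 at 186.7 CPM (others 189.8 to 191.0), and in HMEC-1 replicate 4 CHST3 was at 50.04 CPM (others 47.54 to 48.22). The remaining 7 were single libraries with at most 4 counts where the others had 0, namely GPC5 (0.08078 CPM), TNFAIP6 (0.02845 CPM) and CHST13 (0.1077 CPM) in EA.hy926 and ACAN (0.02167 CPM), HS6ST2 (0.02449 CPM), HS3ST3B1 (0.0285 CPM) and HPSE2 (0.02615 CPM) in HMEC-1.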

How the results depend on the processing

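Under the alternatives run, 6 members passed both thresholds with DESeq2, limma-voom, RLE factors, library totals, glmTreat, the replicate block and each library left out. With at least 10 counts in every library, SDC2 and GPC4 were not tested and 4 members were called, other core proteins called fell from 7 to 4 and heparan sulfate genes from 5 to 2, because fewer genes were tested, and all genes called were 3255 rather than 5784, against 9312 without a filter, where HAS2 was a further member called. With glmTreat against a log2FC of 1, precursor and linker genes called fell from 4 to 2 (SLC35B3 and SLC35D1), and HAPLN3, NDST3 and NAGLU were lost from their lists. With library totals, which moved the median of all genes by -0.13, SDC3 turned to -0.02; the cause was not tested. Of the list genes, HAPLN3, NAGLU, GALNS and CASK fell under the fold threshold there, to 0.88, 0.92, 0.93 and 0.95, and EZR passed it. Leaving out single libraries gave 7 to 8 core proteins and 8 to 9 hyaluronan genes called.

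Shares depended on the length used. With the longest transcript and without a length, SDC4 held 54.09% and 42.5% of the syndecan sum in EA.hy926 and 42.95% and 33.34% in HMEC-1, and GPC1 63.75% and 71.95% of the glypican sum in EA.hy926 and 86.89% and 87.85% in HMEC-1. HAS3 held 89.9% and 97.29% without a length. The replicate numbers did not pair the libraries, with correlations of same-numbered deviations from -0.0228 to 0.0389 and the best match at the own number for 2 of 5 numbers, and the replicate block gave 5786 genes called and 6 members. Low counts limit HAS2 in both lines and SDC2 in EA.hy926.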

Other observations

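Several genes of the lists were too low for the test, and their counts are given here. The CPM ranges of the lines did not overlap for FMOD and CSGALNACT1, but overlapped for SPOCK3, MMP9 and HS3ST5. FMOD, encoding the small leucine-rich proteoglycan fibromodulin, had 0 counts in EA.hy926 against 5 to 11 counts in HMEC-1. CSGALNACT1, whose product starts chondroitin sulfate chains, had 5 to 10 counts in EA.hy926 against 0 to 4 in HMEC-1, and SPOCK3 had 0 to 6 counts in EA.hy926 against 0 in HMEC-1. MMP9, the other gelatinase gene, had 0 to 5 counts in EA.hy926 against 0 in HMEC-1. Of the 3-O-sulfotransferase genes beside HS3ST1, HS3ST2, HS3ST3A1 and HS3ST4 had 0 counts in every library, and HS3ST5 had 2 to 10 counts in EA.hy926 against 5 to 14 in HMEC-1. HS6ST1 was the 6-O-sulfotransferase gene that was read, at 23.1 ± 0.964 CPM in EA.hy926 compared with 32.4 ± 1.68 CPM in HMEC-1 (SD, n = 5 each; log2FC = -0.49, edgeR adjusted p = 8.9e-10), since HS6ST2 and HS6ST3 had at most 1 count in any library. These genes were named after their values were seen.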
